A study of Homo sapiens with 15 samples.

Results

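The class described here comprises 78 late-numbered microRNA (miRNA) entries of the miRBase catalogue. Each is a single entry named hsa-miR-N with N of 3000 or more, and its raw counts summed over the 14 sequenced libraries reached 100. The members were thus chosen by name and selected on their summed raw count, and the level of a member over all libraries is part of how it was chosen. The table holds 1619 entries. After 13 entries of 10 numbers (miR-3065, miR-3609, miR-4284, miR-4484, miR-4485, miR-4497, miR-4521, miR-10401, miR-12135 and miR-12136) were set aside, 829 late-numbered entries were in it, and 751 of them stayed under the minimum. For comparison, 391 of the 752 entries with numbers under 3000 met the same minimum and are called early-numbered here. The last members to reach the minimum were miR-6724-5p and miR-10399-5p with 107 counts each and miR-3136-5p with 100. The first entries below it were miR-3940-3p with 99, miR-3913-5p with 96 and miR-3177-3p with 92.

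MiRNAs are short RNAs that Drosha and Dicer cut from hairpin precursors and that guide Argonaute proteins to messenger RNAs, mainly through the seed near the 5′ end. miRBase numbers entries in order of registration, so the abundant and conserved families carry low numbers, while high numbers mostly come from later deep-sequencing surveys. Among the later entries are mirtrons, which are spliced rather than cut by Drosha, and sequences whose standing as miRNAs has been questioned because they can be fragments of other RNAs.

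DiFi, the cell line behind all libraries, is an established line from a human colorectal cancer, and the series tried ways of growing these cells to collect the RNA carriers that they secrete. The labels give 2 cell pellets (HF6 and HF7), 3 plates of cells for each of HF6 and HF7, 2 unfiltered and 2 filtered HDM samples (HF6 and HF7), and single libraries labelled HDM media and regular media. The labels spell out neither HDM nor HF, record no treatment, genotype or age, and leave it unsaid whether replicates come from separate cultures. The p-values therefore measure only the spread between these samples, which may be technical.

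The mature sequences below are those of the deposited table, written 5′ to 3′ as DNA with the seed (bases 2 to 8) in capitals. Of the 78 members, 67 have the same sequence in RefSeq's miRNA table for GRCh38 and 11 have no entry there. The first set holds the 12 members with the most counts, which together carry 69.2% of the counts of the class.
miR-3613-5p: tGTTGTACttttttttttgttc
miR-4517: aAATATGAtgaaactcacagctgag
miR-7974: aGGCTGTGatgctctcctgagccc
miR-7977: tTCCCAGCcaacgcacca
miR-3615: tCTCTCGGctcctcgcggctc
miR-4636: aACTCGTGttcaaagcctttag
miR-3180-3p: tGGGGCGGagcttccggaggcc
miR-7704: cGGGGTCGgcggcgacgtg
miR-4326: tGTTCCTCtgtctcccagac
miR-3180: tGGGGCGGagcttccggag
miR-4473: cTAGTGCTctccgttacaagta
miR-3182: gCTTCTGTagtgtagtc

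The next set shows the few seeds that members share. The seed GGGGCGG is common to miR-3180-3p and miR-3180 above and to miR-3196, and the seed CTCACCA to both miR-6511 entries. Only 2 members share a seed with an entry of at least 1000 counts. These are miR-9985, whose first 15 bases are those of miR-27b-3p and miR-27a-3p, and miR-3617-5p, whose first 10 bases are those of miR-641.
miR-3196: cGGGGCGGcaggggcctc
miR-6511a-3p: cCTCACCAtcccttctgcctgc
miR-6511b-3p: cCTCACCAccccttctgcctgca
miR-9985: tTCACAGTggctaagctat
miR-27b-3p: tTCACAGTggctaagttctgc
miR-27a-3p: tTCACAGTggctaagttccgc
miR-3617-5p: aAAGACATagttgcaagatggg
miR-641: aAAGACATaggatagagtcacctc

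The last set holds other members that differed between groups in the tests below. miR-3648, miR-9901, miR-4707-5p and miR-6724-5p are rich in G and C and were low or without counts in the cell pellets, whereas miR-4791 is rich in A and T and was high there. miR-6516-3p is also rich in A and T, but of the pellets only that of HF6 held more of it than every plate. miR-4446-3p is the member called between HDM and plates.
miR-3648: aGCCGCGGggatcgccgaggg
miR-9901: cGGTCGCCgcggttcgccgcc
miR-4707-5p: gCCCCGGCgcgggcgggttctgg
miR-6724-5p: cTGGGCCCgcggcgggcgtgggg
miR-4791: tGGATATGatgactgaaa
miR-6516-3p: aTCATGTAtgatactgcaaaca
miR-4446-3p: cAGGGCTGgcagtgacatgggt

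The class differed from the early-numbered entries in several features that its rule did not use; these are descriptions, with no test. Both sets had a median length of 22 bases. Lengths of 19 bases or less were found in 15 members (19.2%) and in 12 early-numbered entries (3.07%). Median GC content was 57.1% against 47.6%. GC content above 70% was found in 20 members (25.6%) and in 12 early-numbered entries (3.07%), while GC content under 40% was found in 15 members (19.2%) and 95 early-numbered entries (24.3%). A seed shared with an entry of at least 1000 counts was found for 2.56% of the members and 27.1% of the early-numbered entries. Names without an arm (neither 5p nor 3p) made up 38.5% of the members and 12.3% of the early-numbered entries.

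Positions in the genome were compared with the GENCODE release 29 annotation of GRCh38. Of the members, 66 (84.6%) lie within an annotated miRNA gene on the same strand, against 389 (99.5%) of the early-numbered entries. An intron of a longer gene holds 39 members, an exon 11, and 28 lie in no longer gene on their strand. The most abundant member, miR-3613-5p (chr13:49996465-49996486, minus strand), lies in an intron of DLEU2, the long noncoding RNA gene that also hosts the tumour-suppressive miR-15a and miR-16-1 hairpin cluster. The exonic members include miR-4517 (chr16:28958587-28958611) in NFATC2IP, miR-3615 (chr17:74748663-74748683) in SLC9A3R1 and miR-7704 (chr2:176188843-176188861) in HOXD1, all on the plus strand. A mirtron-like position is held by 3 of the intronic members, with the 3p end at most 5 bases from the end of an intron of at most 200 bases: miR-6511a-3p, miR-6511b-3p and miR-6803-3p. The early-numbered entries hold 4 of that kind. The whole of miR-6516-3p (chr17:77089469-77089490) lies in SCARNA16, a small Cajal body RNA. Such a position does not tell whether a read came from a miRNA or from that RNA. The small RNA classes searched did not include nuclear transfer RNAs, so overlaps with these were not tested.

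Some members are not independent of one another or of other entries. The sequence of miR-3180-3p (3 locations) and that of miR-3180 (2 locations) differ by at most 1 mismatch over their shared bases. In 12 of the 13 libraries where they had counts, miR-3180-3p held 60.0% of their joint count, which is its share of the 5 locations, and 60.7% in the other one. They are 1 measurement printed under 2 names. The pair of miR-6511 entries also differs by at most 1 mismatch. The 2 miR-3074 arms lie on the opposite strand of the miR-24 hairpin on chromosome 9. The deposited table does not state how strand was used, so the 255 counts of miR-3074-5p and the 150 of miR-3074-3p are uncertain beside the 435480 counts of miR-24-3p. The counts of miR-9985 are uncertain for the same kind of reason, given its shared start with the abundant miR-27 entries.

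Library totals ran from 205747 (unfiltered HDM HF7) to 4896931 counts (regular media), and the HF7 pellet held 313398. Levels are given as CPM, the count scaled to a library total of 1000000. In that unit 3 counts, the level used as a floor for an entry without reads, are worth between 14.6 and 0.613 over the libraries. These values precede the normalisation used for single members below. All 6 epithelial marker miRNAs were detected in every library, with 12.5% to 20.2% of the counts. The 4 leukocyte miRNAs held 0.138% to 0.410%, and the liver marker miR-122-5p was at or near 0. The late-numbered entries set aside by the rule took 2.98% of the counts of the HF6 pellet and 0.376% to 0.936% of every other library. The sums that define membership weigh deep libraries most, so an entry seen mainly in the shallow HF7 pellet or the HF7 unfiltered HDM could hardly reach the minimum.

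The 78 members held 48363 counts, or 0.122% of the table. By number, 30 members run from 3000 up and hold 49.2% of the class, 20 run from 4000 up with 22.2%, 4 from 5000 up and 6 from 6000 up with 1.85% and 1.86%, and 18 from 7000 up with 24.9%. The numbers from 6000 up thus gave 6 members from 283 entries in the table. A single member, miR-3613-5p with 15085 counts, carried 31.2% of the class, and the 6 members with at least 1000 counts carried 60.3%. The median member had 214 counts over all libraries, against 2223 for early-numbered entries. Fewer than 200 counts were found for 36 members, 28 were detected in all 14 libraries, and 50 had no count in at least 1.

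Outside the pellets, the share of the class in a library ran from 0.107% to 0.148%. It was 0.111% and 0.116% in filtered HDM, 0.119% and 0.134% in unfiltered HDM, 0.110%, 0.138% and 0.148% on HF6 plates 1 to 3, and 0.107%, 0.121% and 0.121% on HF7 plates 1 to 3. The media libraries stood at 0.125% (HDM) and 0.112% (regular). The pellets lay at the 2 ends of the range, at 0.149% (95% exact binomial interval 0.145% to 0.153%) for HF6 and 0.0600% (0.0517% to 0.0692%) for HF7. The HF6 pellet did not stand apart from HF6 plate 3, whose interval was 0.141% to 0.155%. Without miR-3613-5p the HF6 pellet stood at 0.0493% of its raw total and the HF7 pellet at 0.0517%. Both lay below the plate 1 libraries (0.0672% and 0.0666%) and below the other 10 (0.0823% to 0.103%). Both pellets were also lowest in detection, the HF7 pellet below the HF6 pellet. With each library thinned to 205747 counts, 37.6 members would be expected with at least 1 count in the HF6 pellet and 30.7 in the HF7 pellet, against 47.5 to 56.5 in the others. The intervals cover counting error only.

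**Figure D1:**
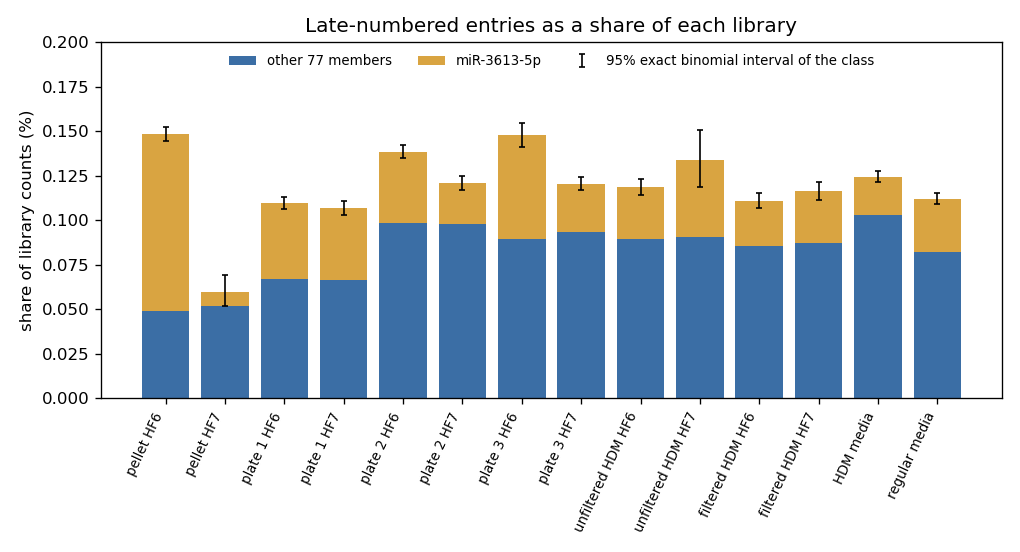
Share of each library's counts (%, bars from 0) held by the 78 late-numbered entries, split into miR-3613-5p and the other 77 members, with the 95% exact binomial interval of the class. Without miR-3613-5p, both pellets stand lowest on this scale of raw totals, at 0.0493% and 0.0517%.

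Values of single members are given as CPM with TMM normalisation, which scales library totals by a factor that lines up the bulk of the entries. On that scale the 77 members other than miR-3613-5p summed to 685 and 587 CPM in the HF6 and HF7 pellets. Unfiltered HF7 HDM held 690 CPM, plate 1 held 755 (HF6) and 729 CPM (HF7), and the other libraries 762 to 947 CPM. Both pellets stayed lowest, but the HF6 pellet did not stand apart from unfiltered HF7 HDM. miR-3613-5p stood at 1382 CPM in the HF6 pellet and 94.3 CPM in the HF7 pellet. It stood at 477, 381 and 587 CPM on HF6 plates 1 to 3 and at 438, 223 and 258 CPM on HF7 plates 1 to 3. Unfiltered HDM had 265 and 329 CPM, filtered HDM 227 and 276 CPM, HDM media 180 CPM and regular media 292 CPM. The HF6 pellet was thus the highest library and the HF7 pellet the lowest, with 3808 and 26 counts behind them. Their ratio was 14.7 (9.99 to 22.5, 95% interval for counting error). Its hairpin partner miR-3613-3p had 39 counts in the HF6 pellet and 0 in the HF7 pellet, where 1 count is worth 3.63 CPM. Other miRNAs of the DLEU2 locus had smaller ratios between the same 2 libraries, at 1.36 for miR-15a-5p and 0.800 for miR-16-1-3p (32 and 4 counts). The ratio for miR-16-5p was 1.29, but its sequence has 2 locations, so its reads need not come from DLEU2. In the tests over groups described next, miR-3613-5p was not called: its log2 fold change was -1.46 ± 0.62 (SE) for HDM against pellets (edgeR adjusted p = 0.105) and 0.96 ± 0.58 for pellets against plates (adjusted p = 0.267). Both estimates changed sign without the HF6 pellet, to 1.64 (adjusted p = 0.0478) and -2.11 (adjusted p = 0.0417), so no direction over the pellets can be given.

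Other abundant members also differed between the 2 pellets. miR-4517 stood at 147 CPM in the HF6 pellet and 21.8 CPM in the HF7 pellet, and between 59.1 and 161 CPM in the 12 other libraries. miR-7977 stood at 18.9 and 68.9 CPM in the pellets and between 42.3 and 148 CPM elsewhere. Each pellet is 1 library, so these are differences between libraries.

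Both arms were members for 7 hairpins. miR-3613 had 46.8 counts of the 5p arm for each of the 3p arm, and the 5p arm led in all 14 libraries. For miR-4664 the ratio was 2.84, again with the 5p arm ahead in all 14. The arms of miR-3942 and miR-10396b were balanced, with ratios of 1.01 and 0.991, and those of miR-10399 had a ratio of 0.764. The ratio for miR-3074, whose counts are uncertain, was 1.7. No ratio is given for miR-3180, since its 3p reads are divided between 2 entries.

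**Figure D2:**
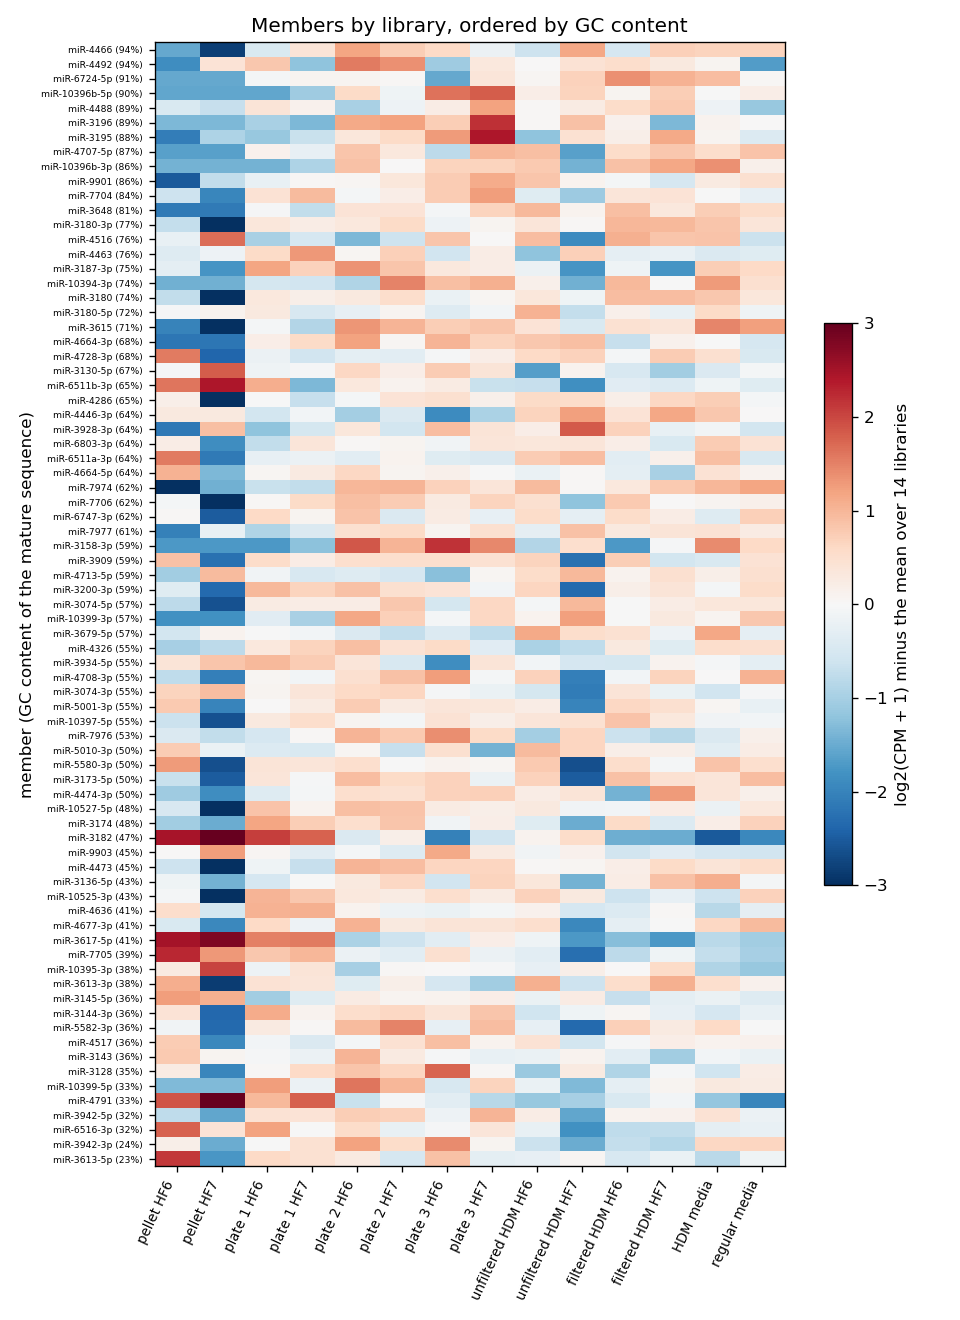
Rows are 77 members ordered by GC content (in brackets), columns the 14 libraries, and colour gives log2(CPM + 1) minus the member's mean over the 14 libraries; miR-9985 is left out. The GC-rich rows at the top are mostly blue in both pellets, while miR-3182, miR-3617-5p, miR-4791 and miR-7705 are red in the pellets and on plate 1.

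Which late-numbered entries differ between HDM and the cells was tested first against the pellets. All 12 replicated libraries were fitted together in edgeR, and an entry counted as called when its p, adjusted over the 535 entries tested by Benjamini-Hochberg, was under 0.05. Of these, 77 were members, and miR-3136-5p was too low to be tested. The mean of the unfiltered and filtered groups was used for HDM. Of the 77 members, 15 were called, 9 higher in HDM and 6 lower. That is 19.5% of the members, and 23.6% of all tested entries were called (10.3% higher and 13.3% lower), so the members were not called more often than entries at large. The median log2 fold change of the members was 0.71, against 0.05 for all tested entries, and 47 of 77 lay above 0. All 4 HDM samples lay above both pellets for 17 members (22.2% of all tested entries) and below both for 9 (22.6% of all tested entries). The median was 0.51 on pooled CPM with members that lacked pellet counts set at their floor. Scaling by total counts alone moved the median of all entries to 0.59 and that of the members to 1.31.

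Among the members higher in HDM, miR-7974, located in an intron of ZNF653, a zinc finger gene, had the most counts. It stood at 1.81 and 21.8 CPM in the HF6 and HF7 pellets. The unfiltered HDM samples had 119 and 62.7 CPM and the filtered ones 76.2 and 105 CPM, so the groups did not overlap. The log2 fold change was 3.93 ± 0.99 (edgeR adjusted p = 0.0121). Its size rests on the HF6 pellet: it was 2.20 (adjusted p = 0.157) without that library and 5.73 without the HF7 pellet. miR-3615 is located in an exon of SLC9A3R1, which encodes a scaffold protein of epithelial microvilli. It stood at 4.35 CPM in the HF6 pellet and had no count in the HF7 pellet. It stood at 27.4, 14.8, 28.7 and 26.7 CPM in the 4 HDM samples, a log2 fold change of 2.80 ± 0.79 (adjusted p = 0.0219). All 4 HDM values again lay above both pellets. The shared reads of miR-3180-3p and miR-3180 gave log2 fold changes of 1.81 ± 0.54 and 1.76 ± 0.55 (adjusted p = 0.0278 and 0.0327). miR-3180-3p had 10.5 CPM and no count in the pellets and 23.4, 18.5, 37.0 and 36.2 CPM in the HDM samples. miR-9901 was called with 1 count in each pellet (0.363 and 3.63 CPM) and 60 in HDM, a ratio of pooled CPM of 12.4 (3.29 to 105, counting interval; adjusted p = 0.0243). Its log2 fold change fell from 3.33 to 1.23 (adjusted p = 0.495) without the HF6 pellet.

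The other 4 members called higher had no count in either pellet, so their folds are lower bounds against a floor of 3 counts over both pellets. That floor rests mostly on the HF6 pellet, whose scaled total was 2755920, against 275752 for the HF7 pellet. In the HF7 pellet 1 count is worth 3.63 CPM, close to the pooled HDM levels of these members (4.09 to 6.55 CPM). miR-3648 had 48 counts in HDM and was at least 6.62-fold higher (adjusted p = 0.00744). miR-6724-5p had 33 counts and was at least 4.55-fold higher (adjusted p = 0.0249). Of the 2 locations of miR-3648 and the 4 of miR-6724-5p, the first listed lies in an intron of FP671120.1 on chromosome 21. miR-4664-3p had 31 counts and was at least 4.27-fold higher (adjusted p = 0.0100). miR-4707-5p had 30 counts and was at least 4.13-fold higher (adjusted p = 0.0314), but the unfiltered HF7 HDM library had none either. This call was lost with DESeq2 (adjusted p = 0.0507), with unfiltered HDM alone (0.0662) and without any 1 of the HF6 unfiltered HDM (adjusted p = 0.9997), the HF6 pellet, or either filtered HDM library.

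The 6 members lower in HDM were miR-3617-5p, miR-3182, miR-4791, miR-6511b-3p, miR-7705 and miR-6516-3p. miR-3182, located in an intron of the cadherin gene CDH13, stood at 58.8 and 105 CPM in the pellets. In the HDM samples it stood at 10.5, 14.8, 2.87 and 2.79 CPM. Its log2 fold change was -3.77 ± 0.93 (edgeR adjusted p = 0.0109). miR-4791 stood at 33.4 and 72.5 CPM in the pellets and between 3.22 and 7.80 CPM in HDM (log2 fold change -3.38 ± 0.79, adjusted p = 0.00841). miR-3617-5p stood at 17.4 and 21.8 CPM in the pellets, and had 6 counts in all 4 HDM libraries together (-4.80 ± 1.11, adjusted p = 0.00793). miR-7705, located in an exon of PABPC1, the poly(A)-binding protein gene, stood at 22.1 and 10.9 CPM in the pellets (61 and 3 counts). It stood between 0 and 3.34 CPM in HDM (-2.89 ± 0.66, adjusted p = 0.00736). All 4 separated the groups without overlap. miR-6511b-3p and miR-6516-3p gave -3.16 ± 0.76 and -2.65 ± 0.69 (adjusted p = 0.0100 and 0.0142). miR-6516-3p stood at 10.9 CPM in the HF6 pellet and, from 1 count, at 3.63 CPM in the HF7 pellet. Without the HF6 pellet its log2 fold change was -1.27 (adjusted p = 0.592) and that of miR-7705 -2.04 (adjusted p = 0.291). The 5 members with the highest ratio of their top library to their median library were among these 6: the ratio was 15.8 for miR-3617-5p, 12.1 for miR-3182, 11.9 for miR-4791 and 8.94 for miR-6511b-3p, each highest in the HF7 pellet, and 6.88 for miR-7705, highest in the HF6 pellet.

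How many members were called depended on single libraries. Without the HF6 pellet 7 members were called (13.7% of all tested entries). Of the 15, 5 were among these, namely miR-3180-3p, miR-3180, miR-3182, miR-4791 and miR-6511b-3p. Without the HF6 unfiltered HDM 4 of the 15 were called (11.4% of all tested entries), namely miR-7974, miR-4664-3p, miR-3617-5p and miR-7705. Without the HF6 filtered HDM 9 members were called (11.4% of all tested entries), and with unfiltered HDM alone 7, beside 59 of all 535 entries.

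**Figure D3:**
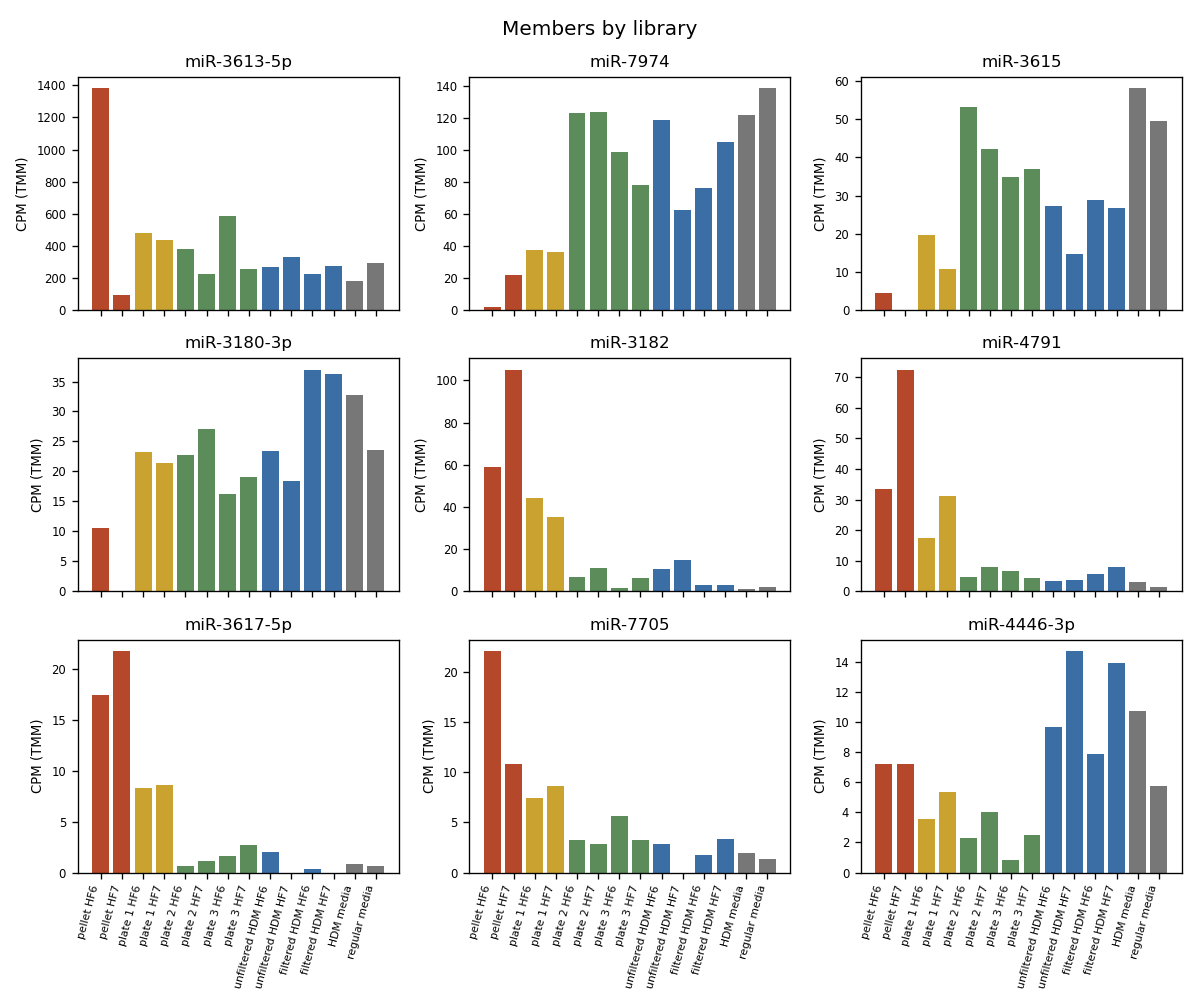
TMM-normalised CPM (vertical axes start at 0 and differ between panels) of 9 members in each of the 14 libraries, with pellets in red, plate 1 in yellow, plates 2 and 3 in green, HDM samples in blue and media in grey. miR-7974 and miR-3615 are lowest in the pellets and lower on plate 1 than on plates 2 and 3, whereas miR-3182, miR-4791, miR-3617-5p and miR-7705 are high in them.

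Cells collected as pellets were next set against cells labelled as plates. Of the members, 6 were called, 1 higher in pellets and 5 lower. That is 7.79%, beside 8.22% of all tested entries (4.3% higher and 3.93% lower). The 5 lower in pellets were also among those higher in HDM than in pellets, and both comparisons share the pellet libraries. miR-7974 stood at 37.8, 123 and 98.8 CPM on HF6 plates 1 to 3 and at 36.1, 124 and 78.0 CPM on HF7 plates 1 to 3, all above both pellets (log2 fold change -3.78 ± 0.97, edgeR adjusted p = 0.0363). miR-3615 stood at 19.7, 53.1 and 34.8 CPM and at 10.7, 42.3 and 37.0 CPM on the same plates (-3.18 ± 0.77, adjusted p = 0.0301). miR-9901 gave -3.55 ± 0.93 (adjusted p = 0.0382). For miR-4664-3p and miR-3648, without pellet counts, the pellets were at least 6.25-fold and 4.33-fold lower (adjusted p = 0.0172 and 0.0363). The only member called higher in pellets was miR-6511b-3p, at 9.80 and 18.1 CPM against a plate mean of 2.96 ± 2.13 CPM (SD, n = 6; 2.20 ± 0.62, adjusted p = 0.0432). The HF7 pellet value rests on 5 counts. This call was lost with the HF number as a block (adjusted p = 0.0783), with total-count scaling (0.0667), without the HF6 or the HF7 pellet (0.159 and 0.129) and without HF6 plate 2, HF6 plate 3 or HF7 plate 3 (0.107, 0.0826 and 0.0981). None of the 6 calls held without the HF6 pellet, where the log2 fold changes of miR-7974 and miR-9901 were -2.02 (adjusted p = 0.244) and -1.42 (adjusted p = 0.455).

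The members as a set lay lower in the pellets than the table at large. Their median log2 fold change was -1.04 (-0.87 on pooled CPM with the floor), against -0.08 for all tested entries. Both pellets lay below all 6 plates for 27 of the 77 members (18.3% of all tested entries) and above all 6 for 8 (13.1% of all tested entries). The shallow HF7 pellet had no count for 43 members of the class, and 1 count there is worth 3.63 CPM. For such a member, lying below all plates rests on the HF6 pellet alone. Members with few counts meet this condition more easily, so the 27 cannot be weighed against the share of all tested entries. Scaled by library total alone, the median of all entries moved to -0.45, and 15 members were called, none higher and all lower (15.0% of all tested entries). Leaving out the plate 1 libraries gave 29 called members of 73 tested, 6 higher and 23 lower, where 37.1% of all tested entries were called. Leaving out HF6 plate 1 or HF7 plate 1 alone gave 18 each (21.9% and 23.2% of all tested entries). Leaving out the HF6 pellet gave 2 (5.498% of all tested entries), leaving out HF6 plate 3 gave 2 (3.40%), and leaving out HF6 plate 2 or HF7 plate 3 gave 1 each (2.32% and 3.09%). Leaving out 1 HDM library also lowered the count, although HDM is not a side of this comparison. Such a library enters through the shared spread, the low-count filter, the scaling and the adjustment.

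No pellet reads at all were found for 11 members: miR-3648, miR-3158-3p, miR-4664-3p, miR-10399-3p, miR-10399-5p, miR-4707-5p, miR-10394-3p, miR-10396b-5p, miR-10396b-3p, miR-3196 and miR-6724-5p. The 2 pellets together held enough counts, most of them in the HF6 pellet, for 3 reads to be worth 0.990 CPM. On that floor the 11 were at least 2.03-fold (miR-6724-5p) to at least 6.30-fold (miR-3158-3p) lower in pellets than on all plates pooled. Plate 1 itself lay under 0.990 CPM in both HF6 and HF7 for miR-3158-3p, miR-10396b-5p, miR-10396b-3p, miR-3196 and miR-10394-3p. The bounds of these members rest on plates 2 and 3. Of the 11, 7 have a GC content above 70%.

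Fold changes went with base composition, most widely in the comparisons with pellets. The bounds of 70% and 40% GC were chosen with the values known, so these are descriptions. For HDM against pellets, the 20 members with GC content above 70% had a median log2 fold change of 2.38. In this band 18 lay above 0, 7 were called higher and 0 lower, and the 7 include the miR-3180 pair that is 1 measurement. The 42 tested members between 40% and 70% had a median of 0.65, and the 15 under 40% had a median of -1.09, with 3 called lower and 0 higher. Early-numbered entries were ordered likewise, at 1.44 (12 entries), 0.12 (284 entries) and -0.34 (94 entries). Of the 12, 5 were called higher and 0 lower, and 19 of the 94 were called lower and 3 higher. For pellets against plates, the GC-rich members had a median of -2.97 (18 of 20 below 0) and the GC-rich early-numbered entries one of -1.35 (11 of 12 below 0). For HDM against plates the medians were -0.13 for the GC-rich members, -0.23 between the bounds and -0.82 under 40% (13 of 15 below 0). The early-numbered entries stood at 0.06, 0.03 and -0.44 (73 of 94 below 0 under 40%).

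Summed over the 20 GC-rich members, the level was 58.8 and 50.8 CPM in the pellets. It was 157, 212 and 189 CPM on HF6 plates 1 to 3, 144, 217 and 276 CPM on HF7 plates 1 to 3, and 168, 137, 211 and 214 CPM in the HDM samples (unfiltered HF6 and HF7, filtered HF6 and HF7). The media stood at 229 CPM (HDM) and 170 CPM (regular). No other library came near the pellets. The most abundant of the 20 besides miR-3615 and the miR-3180 pair was miR-7704, at 10.5 and 3.63 CPM in pellets and between 7.38 and 41.3 CPM elsewhere. For the 14 members under 40% GC other than miR-3613-5p, the sum was 267 CPM in the HF6 pellet and 149 CPM in the HF7 pellet, and between 88.6 and 223 CPM elsewhere. RNA quality and library amplification were not measured in the deposited table, and their part in this pattern was not tested.

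**Figure D4:**
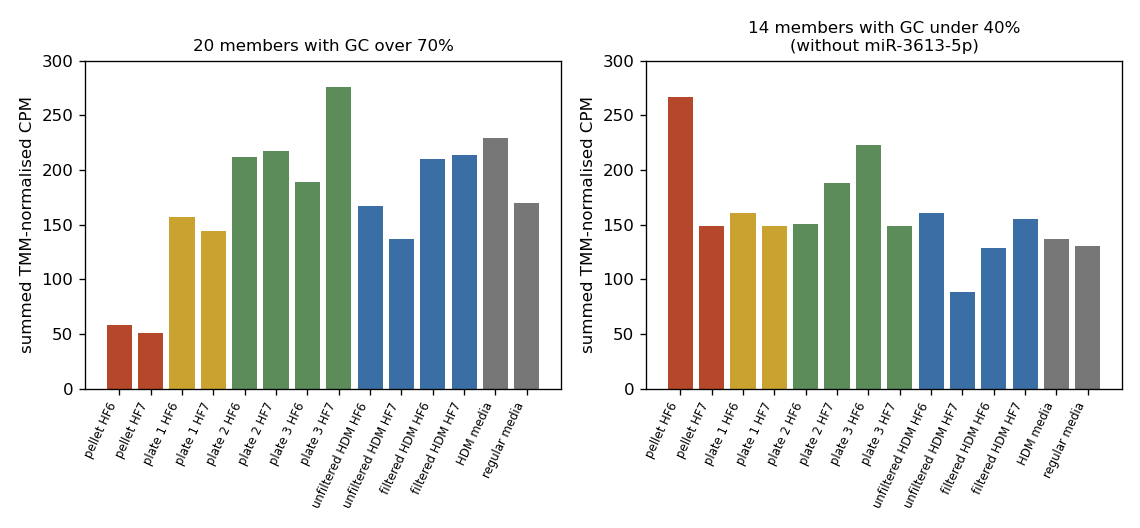
Summed TMM-normalised CPM (bars from 0) of the 20 members with GC content above 70% and of the 14 members under 40% without miR-3613-5p, in the 14 libraries. Pellets are red, plate 1 yellow, plates 2 and 3 green, HDM samples blue and media grey. The GC-rich sum is 58.8 and 50.8 CPM in the pellets and 137 to 276 CPM elsewhere.

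**Figure D5:**
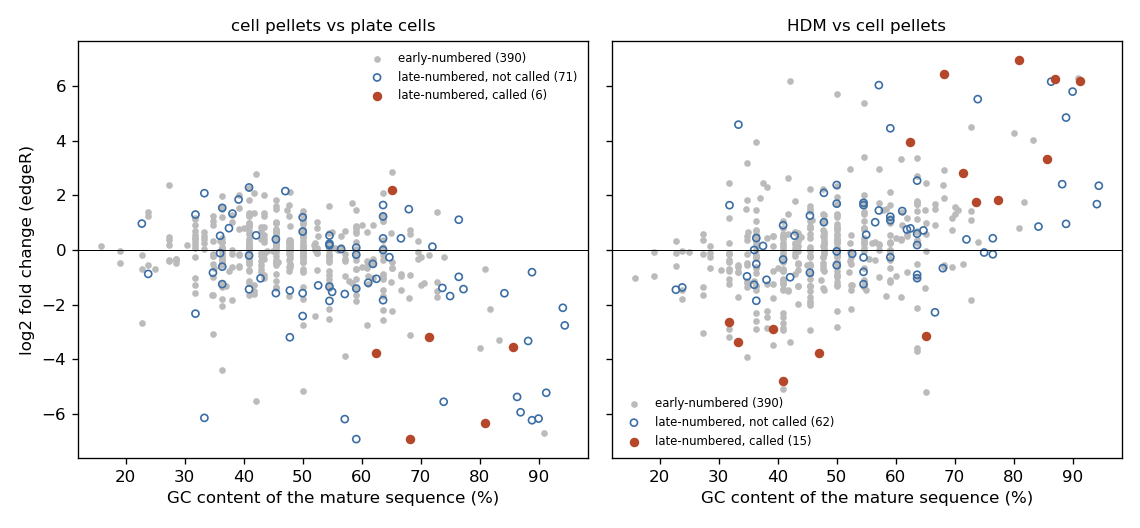
Log2 fold change from edgeR against the GC content (%) of the mature sequence, for pellets against plates and HDM against pellets. Grey points are early-numbered entries, open circles late-numbered members and filled red circles called members; folds beyond about 4 belong mostly to entries without pellet counts and depend on the prior count of the fit. GC-rich members lie low on the left and high on the right.

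Plate number also went with the levels of several members. Libraries of plate 1 (HF6 and HF7) were set against those of plates 2 and 3 by overlap alone, with no test. Both plate 1 libraries lay below all 4 others for 17 members, or 22.1% (23.0% of all tested entries), and above all 4 for 10, or 13.0% (26.9% of all tested entries). The low members included miR-7974, 2.87-fold lower on plate 1, and miR-3615, 2.76-fold lower. miR-3195 stood at 2.98 and 4.52 CPM on plate 1 and between 10.1 and 20.2 CPM on the other plates except HF7 plate 3, which had 46.0 CPM. miR-3158-3p had 1 read in the plate 1 libraries together and 117 reads, a mean of 9.61 CPM, on plates 2 and 3. The high members included miR-3182 (6.14-fold), miR-3617-5p (5.49-fold), miR-4791 (4.12-fold) and miR-4636 (2.22-fold).

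For 7 of the 15 members called between HDM and pellets, plate 1 lay apart from plates 2 and 3 on the side of the pellets, and for 8 the plates overlapped. Of the 6 called lower in HDM, 4 were higher on plate 1 without overlap (miR-3182, miR-3617-5p, miR-4791 and miR-7705) and none were lower. Over all 71 entries called lower in HDM, 69.0% were higher on plate 1 and 4.23% lower. Of the 9 called higher in HDM, 3 were lower on plate 1 (miR-3615, miR-7974 and miR-9901) and none were higher, while 6 overlapped. Over all 55 entries called higher in HDM, 49.1% were lower on plate 1 and 5.45% higher. The spread between plates also entered the p-values of every comparison, since all groups shared 1 estimate of it.

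Between HDM samples and plate cells a single member was called, miR-4446-3p, from 77 members tested, beside 9.35% of all tested entries. At an unadjusted p under 0.05 there were 15 members, against 143 of the 535 entries, and 51 of the 77 lay below 0, against 302 of the 535. It lies in an intron of SIDT1 and stood at 9.67, 14.8, 7.90 and 13.9 CPM in the HDM samples. On the plates it stood at 3.57, 2.29 and 0.810 CPM (HF6) and 5.34, 4.0 and 2.49 CPM (HF7), below every HDM sample (log2 fold change 1.82 ± 0.41, edgeR adjusted p = 0.0138). The pellets, at 7.26 and 7.25 CPM (20 and 2 counts), lay between. The value of 14.8 CPM in the unfiltered HF7 HDM rests on 4 counts, and that of 0.810 CPM on HF6 plate 3 on 1. The median log2 fold change of the members was -0.33, and that of all tested entries -0.09. Without the HF6 unfiltered or the HF7 filtered HDM library the call was lost, while 4 members were called without HF6 plate 1 and 2 without HF7 plate 1 (13.2% and 12.9% of all tested entries). The count also moved with 1 pellet left out, a fit with 1 library in that group. Other settings changed this count in both directions: 2 higher and 1 lower with RLE size factors (12.1% of all tested entries), and 2 higher and 5 lower without the plate 1 libraries (21.0% of all tested entries).

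Filtering made no difference that could be called. Between filtered and unfiltered HDM, edgeR called 0 of the 77 members (0.0% of all tested entries), 0 members had an unadjusted p under 0.05, and DESeq2 called 0. The 2 filtered samples lay above both unfiltered ones for 13 members (23.0% of all tested entries) and below them for 13 (16.3% of all tested entries). Each side had 2 libraries, and 1 of the unfiltered ones was the shallowest of the series. Between HF7 and HF6 plates edgeR likewise called 0 members (0.0% of all tested entries), and DESeq2 called 0. At an unadjusted p under 0.05 there was 1 member, miR-6511b-3p, with 1.5 ± 1.24 CPM on HF7 and 4.41 ± 1.86 CPM on HF6 plates (SD, n = 3 each; edgeR adjusted p = 0.999).

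HDM media and regular media are 1 library each, so their ratios describe these libraries. Of the 23 members with at least 50 counts in 1 of the 2, 8 had a counting interval wholly above 1 and 4 wholly below. The same share over all entries is not given here, so these counts show nothing particular to the members. miR-3679-5p, located in an intron of MGAT5, which encodes an N-glycan-branching enzyme, was 2.89-fold higher in HDM media (2.03 to 4.21, 136 against 41 counts). miR-4488 was 2.20-fold higher (1.36 to 3.65) and miR-4446-3p 1.87-fold higher (1.18 to 3.01). miR-10525-3p, located in an intron of GTF2IRD1, had a ratio of 0.366 (0.232 to 0.563), and miR-3613-5p one of 0.617 (0.569 to 0.668). The HDM medium without cells that the labels list was not analysed here, so no level of these members in medium alone can be given.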

How the data were processed

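Small RNA of DiFi cells was extracted with the miRNeasy kit and sequenced from NEXTflex libraries, per the labels' protocols. The authors deposited expected counts per mature miRNA, not normalised; 4.40% of the values are not whole, and how reads were split, the miRBase release and the filters are not given in the sources used here. Per the submitters' processing notes, cutadapt 2.10, Bowtie 1.3.1, FastQC and the build GRCh38 were used. Of 15 labelled samples, the HDM medium without cells was not analysed here.

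The expected counts as deposited were rounded to whole counts. The 5 replicated groups (12 libraries) were fitted in edgeR 4.0.16 (quasi-likelihood test, TMM factors, filterByExpr by group, 7 residual degrees of freedom, common biological coefficient of variation 0.363), with Benjamini-Hochberg adjustment over 535 entries. HDM media and regular media stayed out of the fit, and their CPM were put on the same scale. The script was tested on simulated data. The members, the gene lists, the GC bounds and the alternatives were chosen with earlier results of these data known. Members are named if they were among the 12 with the most counts, among the 6 largest called changes in each direction of a comparison, next to the count minimum, opposite or nearly identical to another entry, or among the 5 with the highest ratio of top to median library. Other names were chosen after their values were seen. Ratios of single libraries have exact binomial intervals at 95%.

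Plate numbers pair the HF6 and HF7 plates, since the deviations of same-numbered plates correlated at 0.770, 0.613 and 0.518. Whether HF numbers pair pellets and HDM could not be told from a single correlation per pair of groups, at most 0.108. Replicates were checked for duplication, and no pair agreed within sampling noise. Alternatives were DESeq2 1.42.0, RLE or total-count scaling, no low-count filter, other sample sets, a replicate block and leaving out single libraries.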

Additional observations from a re-analysis of the deposited data

Results flagged for a closer look

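For 3 members the HF6 pellet lay on one side of all HF6 plates and the HF7 pellet on the other side of all HF7 plates. Each pellet is 1 library, and the difference between HF6 and HF7 was not tested. How many of all tested entries met the same condition is not given here, so the count of 3 shows nothing particular to the class. miR-3613-5p stood in the HF6 pellet at 2.87 times the mean of the HF6 plates and in the HF7 pellet at 0.307 times that of the HF7 plates. miR-4664-5p stood at 1.72 times the plate mean for HF6 and at 0.309 times for HF7, where the pellet value rests on 1 count. miR-3679-5p went the other way, at 0.809 times for HF6 and 1.58 times for HF7, where the pellet value rests on 3 counts.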

How the results depend on the processing

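Of the 15 members called between HDM and pellets, 7 remained with unfiltered HDM alone, and leaving out single libraries gave 4 to 18 calls. Between HDM and plates the 1 call became 2 with DESeq2 (adjusted p given for 59 members), 3 with RLE size factors, 2 with total-count scaling, 4 without the low-count filter, 7 without plate 1, 3 with the HF number as a replicate block and 0 with unfiltered HDM alone, and leaving out single libraries gave 0 to 4. Between pellets and plates the 6 calls (8.22%) became 11 with DESeq2 (13.8%) and 15 with total-count scaling (15.0%). They became 18 without the low-count filter (7.14%) and 29 without plate 1 (37.1%). Leaving out single plates gave 1 to 18 (2.32% to 23.2%). The causes were not tested. Pellets, unfiltered HDM and filtered HDM of the same HF number correlated at 0.108 or less. With 2 libraries per group the HF6 and HF7 deviations mirror each other, so each pair of groups gives a single value. The HF7 pellet and the unfiltered HF7 HDM were also shallow, so these values cannot tell whether HF numbers mark pairs. The HF block left 15 and 5 calls in the 2 comparisons with pellets (24.7% and 8.60% of all tested entries). A plate block left 0 between HF7 and HF6 plates (0.0%). The mean class share over the replicated libraries, 0.119%, was 0.0806% without miR-3613-5p, and the 49.4 members detected at equal depth became 30.0 when 2 counts were asked for. For miR-3613-5p, leaving out the HF6 or the HF7 pellet gave log2 fold changes of 1.64 and -2.24 for HDM against pellets, and of -2.11 and 1.78 for pellets against plates. Depth limits most members. In the HF7 pellet and the unfiltered HF7 HDM sample, 3 counts are worth 9.57 and 14.6 CPM of the raw total. With TMM normalisation they are worth 10.9 and 11.1 CPM.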
